A study of Caenorhabditis elegans with 11 samples.

Results

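The glutathione S-transferase genes of Caenorhabditis elegans were followed in RNA-seq libraries of whole adult worms. The members were all genes whose name in the files begins with gst, gsto or gstk and a number, and which reached at least 0.5 CPM (the count scaled to the library total) in 2 or more of 8 libraries. Of 49 genes with such a name, among 47084 genes listed, 34 met this rule. The 8 libraries came from about 1000 worms each, on day 1 of adulthood and grown at 20 °C on the bacterial strain OP50. N2, the standard laboratory strain, gave 2 libraries. The WT line gave 3 libraries, and it combined the daf-16 deletion mu86 with iqIs79, an integrated array from which the daf-16 promoter drives GFP-tagged DAF-16 of unaltered sequence. The 2KR line also gave 3 libraries and carried the same deletion with iqIs85, the same construct with the K248 and 253R replacements of lysine by arginine in DAF-16. Both lines carried the marker plasmid pRF4, N2 had neither deletion nor array, and each construct was represented by 1 line, so a substitution and any other difference between the lines cannot be told apart. The submitters describe the altered DAF-16 as hypoacetylated, and the comparison of lines asks how the transcriptome differs with it.

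Glutathione S-transferases join the thiol peptide glutathione to reactive compounds, which makes them more soluble and ready for export from the cell. Most of the worm enzymes are small soluble proteins of the gst family. The gsto genes encode the omega class, which has a cysteine in the active site and favours reduction over conjugation, and the gstk genes encode the kappa class of mitochondria and peroxisomes. In the worm, many gst genes are induced by oxidants and toxins through the transcription factor SKN-1, the relative of mammalian NRF2, and some are also listed among genes that respond to insulin signalling through the FOXO factor DAF-16.

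Each of the 8 libraries held between 21947014 and 30810301 counts. The daf-16 transcript averaged 152 CPM in N2, 417 CPM in WT and 246 CPM in 2KR, and the 2KR level was below the WT level (log2 fold change -0.77 ± 0.10 SE, adjusted p = 0.0134 by edgeR). The marker gene rol-6 had 2 and 3 counts in the N2 libraries and at least 1569 in each library of the other lines. It was 2.22-fold higher in 2KR than in WT (log2 fold change 1.15 ± 0.11 SE, adjusted p = 0.00179 by edgeR). Every marker listed for intestine, body wall muscle, neurons, pharynx, hypodermis and cuticle, sperm and germline had reads in at least 1 library. A further line with 4 replaced lysines, 4KR, is not analysed here because names and counts were mismatched in its files: across genes its libraries correlated with the others at 0.372 to 0.388, against 0.994 to 0.999 among the 8 libraries. Libraries that share a repeat tag in the file headers (1, 3 or 6-6) also shared part of their deviations from the group means, with correlations of 0.540, 0.505 and 0.380 over the 3 pairs of WT and 2KR libraries. N2 replicates 1 and 2 carry the tags 1 and 6-6.

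A few genes supplied most of the glutathione S-transferase RNA of the adult. CPM values from here on are scaled by TMM, which corrects for differences in library composition. The most abundant member was gst-1 (WBGene00001749, chromosome III 9059331 to 9060181 of WBcel235), a relative of the mammalian pi class, and it alone held 34.1% of the summed level of the 34 genes. It stood at 253 and 259 CPM in the N2 libraries, at 245, 229 and 253 CPM in the WT libraries and at 225, 218 and 229 CPM in the 2KR libraries. The N2 and WT values overlapped, and the N2 values lay above all 2KR values. The next gene was gst-7 (WBGene00001755, chromosome II 4882062 to 4883358) with a mean of 128 CPM over the 8 libraries. Together with gst-1 it made up 52.3% of the sum, and the 5 most abundant genes made up 68.0%.

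Below these came a middle layer of genes at similar levels. The cytosolic enzyme gene gst-10 (WBGene00001758, chromosome V 2561690 to 2564645), whose product conjugates reactive products of lipid peroxidation, averaged 38.1 ± 1.84 CPM in N2 (SD, n = 2), 38.1 ± 7.09 in WT and 37.97 ± 4.98 in 2KR (SD, n = 3 each). The group means of gst-10 were nearly equal, and its libraries with tag 6-6 were the highest of each group, at 39.4, 45.3 and 43.7 CPM. The kappa class gene gstk-1 (WBGene00014251, chromosome II 9656705 to 9657719) stood at 41.3 and 39.4 CPM in N2, at 33.2, 37.1 and 40.03 CPM in WT and at 37.3, 32.3 and 40.5 CPM in 2KR. The 3 groups of gstk-1 values overlapped.

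In all, 13 members had a mean of at least 10 CPM over the 8 libraries, 15 lay between 1 and 10 CPM, and 6 lay below 1 CPM. Levels are comparable between genes only per length, and the order at the top was the same per kilobase of exon: 319 for gst-1, 171 for gst-7, 52.9 for gst-10, 48.1 for gstk-1 and 44.5 for gst-13. The summed level of the 34 members was 709 to 727 CPM in N2, 676 to 744 CPM in WT and 649 to 732 CPM in 2KR, and the 3 ranges overlapped. In bulk RNA from whole worms, fewer cells of a type and less RNA per cell cannot be told apart, here and in every comparison that follows.

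**Figure D1:**
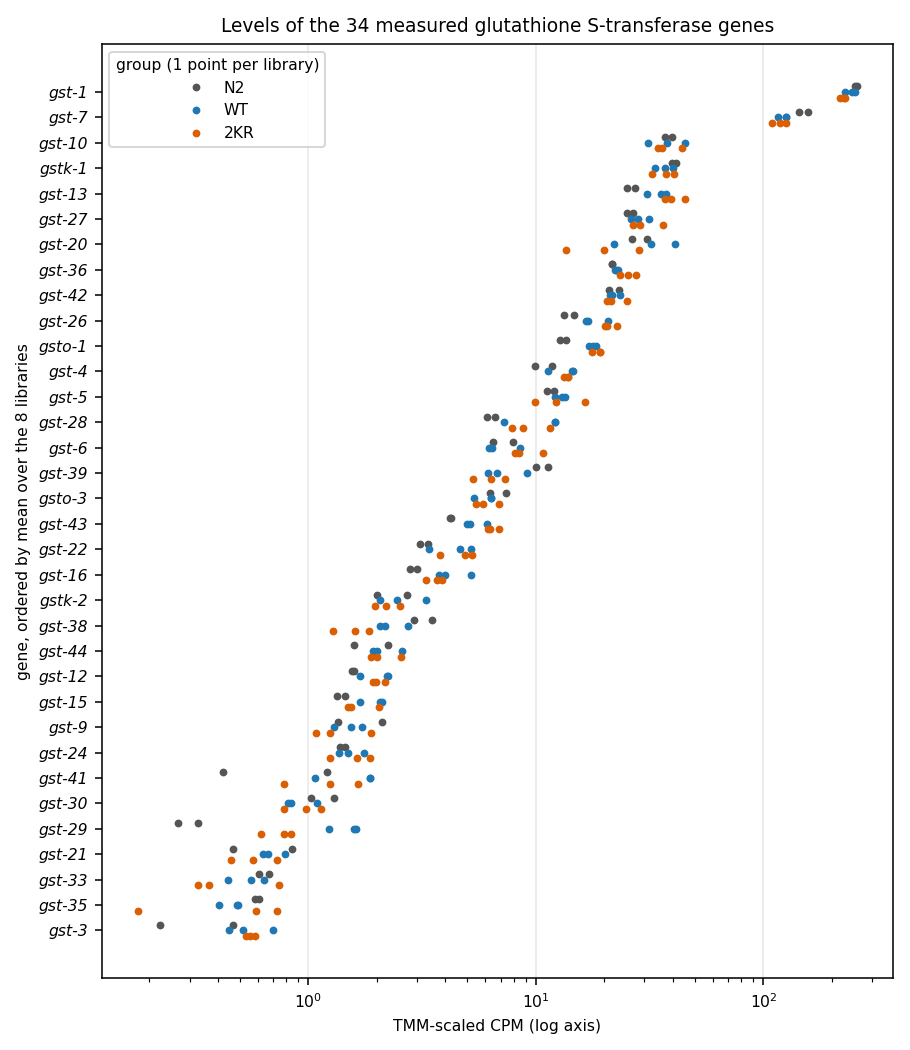
TMM-scaled CPM (log axis) of the 34 measured genes, ordered by their mean, with 1 point per library in the colour of its group. The levels run from gst-1 at 239 CPM on average to gst-3 at 0.504 CPM.

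Of the 49 named genes, 15 stayed under the rule and had few reads in adults. Their counts summed to between 1 and 79 over the 8 libraries, with at most 18 in 1 library. The omega class gene gsto-2 was among them, as were gst-8, gst-14, gst-17, gst-18, gst-19, gst-23, gst-25, gst-31, gst-34, gst-37 and gst-40. Just outside the rule were gst-32, gst-11 and gst-2, whose second highest CPM, before TMM scaling, was 0.485, 0.459 and 0.396. Just inside it were gst-3, gst-35 and gst-33, at 0.592, 0.592 and 0.662.

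Chromosome II carries 26 of the 49 genes and 18 of the 34 members. Of the members, 16 lie in 4 runs of neighbouring family genes less than 10000 bases apart, and 18 stand alone. A run from gst-6 to gst-9 covers chromosome II 4879891 to 4893573, a run of 9 genes from gst-20 to gst-18 covers 13608154 to 13630887, and another 9 genes from gst-26 to gst-35 cover 15163817 to 15185389. The last run, from gst-3 to gst-4, covers chromosome IV 10139380 to 10143099. Levels differed widely inside a run: gst-7 averaged 128 CPM, and its next neighbours gst-6 and gst-8 averaged 7.84 and 0.0482 CPM. All 34 members are protein-coding, with coding lengths from 618 to 927 bases and a median of 627. How alike the copies of a run are in sequence was not analysed here, so reads shared between near-identical copies cannot be told apart and the values of single genes in a run are uncertain to that extent.

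Against N2, the WT line showed higher RNA of gst-29 and gsto-1. Both genes also stood above N2 in the 2KR line. Genes were called at an edgeR quasi-likelihood adjusted p under 0.05 over all 14361 genes tested. In WT against N2, 2 of 34 members were called, both higher, where 4.07% of all genes tested were called, 1.86% higher and 2.21% lower. The median log2 fold change was 0.14 over the members and 0.01 over all genes, and 21 of 34 members had a positive value. Of the members, gst-29 and gst-3 reached 0.5 CPM only in libraries of the transgenic lines, so they entered through the groups where they are high. Counts and medians over the members against N2 are therefore given as a description, and gsto-1 is the 1 call in WT that does not rest on such a member.

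Gene gst-29 (WBGene00001777, chromosome II 15168538 to 15169861), a member of the third run, had 7 and 6 counts in the N2 libraries, 43, 33 and 46 in the WT libraries and 19, 23 and 22 in the 2KR libraries. These are 0.327 and 0.267 CPM in N2, 1.58, 1.24 and 1.61 CPM in WT and 0.620, 0.840 and 0.781 CPM in 2KR. The 3 groups did not overlap, WT being highest and N2 lowest. The rise in WT was 4.92-fold (log2 fold change 2.30 ± 0.32 SE, adjusted p = 0.00397 by edgeR), and within tags 1 and 6-6 the ratio was 4.85 and 6.03. In 2KR the rise over N2 was 2.49-fold (1.31 ± 0.35 SE, adjusted p = 0.046 by edgeR). The order of its group means was that of daf-16 itself, a description over 3 groups that was chosen after the values were seen. That order is not particular to gst-29, since gst-12, gst-15, gst-16, gst-28, gst-41 and gst-44 had it too. In gst-12 and gst-44 the WT and 2KR means were nearly equal, at 2.05 and 2.02 CPM and at 2.17 and 2.15 CPM. The share of all genes with this order was not counted, so it is not read as a trait of the family.

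The omega class gene gsto-1 (WBGene00016204, chromosome III 7945542 to 7947018) stood at 12.8 and 13.6 CPM in N2, at 18.3, 17.8 and 17.2 CPM in WT and at 19.03, 17.6 and 19.1 CPM in 2KR. All values of both lines lay above N2, and the WT and 2KR values overlapped. The rise was 1.34-fold in WT (log2 fold change 0.43 ± 0.09 SE, adjusted p = 0.0259 by edgeR) and 1.41-fold in 2KR (0.49 ± 0.09 SE, adjusted p = 0.00956 by edgeR). The gene shares 52 exon bases with kle-2 on the other strand, and kle-2 had a log2 fold change of -0.01 in WT and -0.03 in 2KR. The other gsto gene above the rule, gsto-3, ran from 5.32 to 7.38 CPM over the 8 libraries and had log2 fold changes of -0.18 ± 0.15 SE in WT and -0.17 ± 0.15 SE in 2KR, which did not pass.

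The other members with the smallest p in WT against N2 did not pass: gst-7 had a log2 fold change of -0.29 ± 0.07 SE (adjusted p = 0.0512 by edgeR). Behind it were gst-13 with 0.39 ± 0.11 SE (adjusted p = 0.0857 by edgeR) and gst-26 with 0.37 ± 0.12 SE (0.117). With DESeq2 in place of edgeR, 5 members were called, gst-13, gst-28, gst-29 and gsto-1 higher and gst-7 lower, where 4.77% of genes were called. Both N2 libraries were needed for the edgeR calls. Leaving out either one leaves 1 library in that group, and calls then fell across all genes, not only the members. The median log2 fold change over the members was 0.13 without N2 replicate 1 and 0.15 without N2 replicate 2. The gsto-1 call was lost without any 1 of the 5 libraries (edgeR adjusted p 0.0578 to 0.265).

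In 2KR against N2, 8 of 34 members were called, gst-13, gst-26, gst-29, gst-43 and gsto-1 higher and gst-7, gst-38 and gst-39 lower. Among all genes tested 7.76% were called, 3.76% higher and 4% lower, and gst-29 again entered through the groups where it is high. The median log2 fold change was 0.16 over the members and 0.01 over all genes, and 13 members had an unadjusted p under 0.05, as did 25% of all genes. The 2 comparisons with N2 share the N2 libraries, so calls in both are not independent of each other.

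Gene gst-13 (WBGene00001761, chromosome II 9231457 to 9232344) stood at 27.4 and 25.2 CPM in N2, at 30.7, 35.3 and 37.4 CPM in WT and at 37.1, 39.2 and 45.4 CPM in 2KR. Every library of either line lay above N2, and WT and 2KR overlapped at 1 library. The rise in 2KR was 1.54-fold (log2 fold change 0.63 ± 0.11 SE, adjusted p = 0.00956 by edgeR), and within tags 1 and 6-6 the ratio of 2KR to N2 was 1.35 and 1.80.

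Gene gst-26 (WBGene00001774, chromosome II 15163817 to 15164553) opens the third run. It stood at 14.7 and 13.2 CPM in N2, at 17.0, 20.6 and 16.6 CPM in WT and at 20.4, 20.0 and 22.6 CPM in 2KR. N2 was again lowest, and WT and 2KR overlapped. The rise in 2KR was 1.51-fold (log2 fold change 0.59 ± 0.12 SE, adjusted p = 0.0157 by edgeR).

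Gene gst-43 (WBGene00001791, chromosome I 2901325 to 2903006) belongs to the zeta class, which acts as an isomerase in the breakdown of tyrosine. It stood at 4.25 and 4.19 CPM in N2, at 4.97, 6.07 and 5.12 CPM in WT and at 6.30, 6.90 and 6.14 CPM in 2KR, and the 3 groups did not overlap. It rose 1.53-fold in 2KR (log2 fold change 0.61 ± 0.14 SE, adjusted p = 0.0298 by edgeR), and in WT it had 0.35 ± 0.14 SE, which did not pass (0.21). The other zeta gene, gst-42, averaged 22.1 ± 1.60 CPM in N2 (SD, n = 2), 22.1 ± 1.15 in WT and 22.3 ± 2.48 in 2KR (SD, n = 3 each), with a log2 fold change of 0.01 ± 0.11 SE in 2KR against N2.

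The 3 members that fell in 2KR against N2 differ in level. The abundant gst-7 stood at 157 and 143 CPM in N2, at 126, 116 and 126 CPM in WT and at 126, 109 and 118 CPM in 2KR, where it was 1.28-fold lower (log2 fold change -0.35 ± 0.07 SE, adjusted p = 0.0178 by edgeR). Both N2 values of gst-7 lay above all 6 values of the other lines. Gene gst-39 (WBGene00001787, chromosome II 15171163 to 15171916), a neighbour of gst-29 in the third run, stood at 11.3 and 9.98 CPM in N2, at 6.15, 9.10 and 6.74 CPM in WT and at 5.29, 7.30 and 6.32 CPM in 2KR, where it was 1.69-fold lower (-0.75 ± 0.18 SE, adjusted p = 0.0358 by edgeR). Again N2 was highest and the 2 lines overlapped.

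The third was gst-38 (WBGene00001786, chromosome V 15915162 to 15916070), which had 75 and 65 counts in N2, 59, 55 and 78 in WT and 49, 35 and 52 in 2KR. These are 3.503 and 2.897 CPM, 2.17, 2.06 and 2.74 CPM, and 1.60, 1.28 and 1.85 CPM. The 3 groups did not overlap, with 2KR lowest, and gst-38 was 2.03-fold lower in 2KR than in N2 (log2 fold change -1.02 ± 0.22 SE, adjusted p = 0.0235 by edgeR). In WT it had -0.46 ± 0.22 SE, which did not pass.

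These 8 calls also needed both N2 libraries, and without either one calls fell across all genes. The median log2 fold change over the members was then 0.18 without N2 replicate 1 and 0.22 without N2 replicate 2. Without 1 library of 2KR, gst-13, gst-26, gst-7 and gsto-1 were called in each of the 3 fits. The other called members each lost the call without some 2KR library: gst-29 and gst-43 without replicates 2 or 3, gst-38 without replicates 1 or 2, and gst-39 without replicates 1 or 3. DESeq2, which called 8.5% of all genes here, made 7 of these calls and not that of gst-29.

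**Figure D2:**
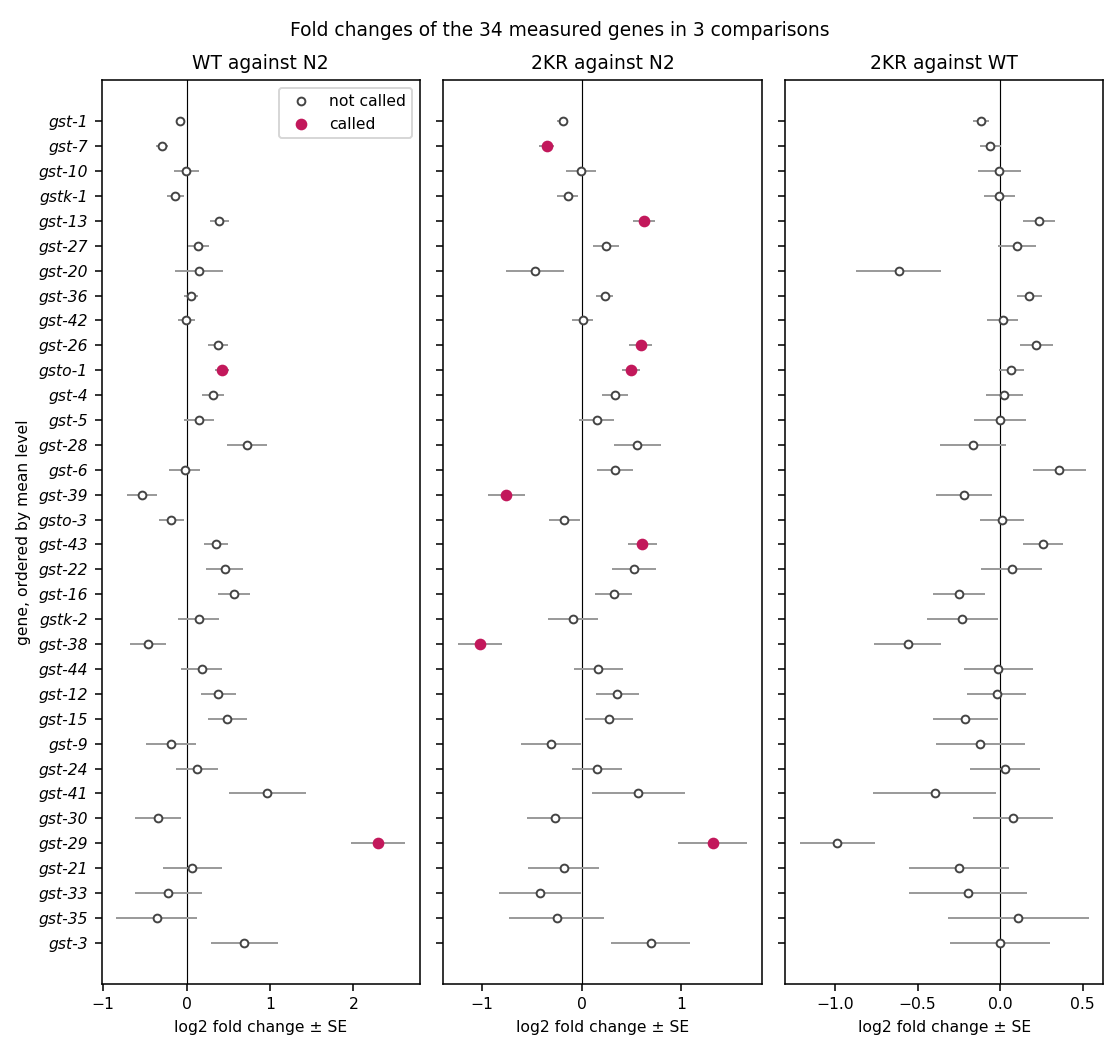
Log2 fold change with its SE of the 34 measured genes, in rows ordered by mean level, in WT against N2, 2KR against N2 and 2KR against WT; filled points passed the edgeR test. In WT against N2 2 genes are filled, in 2KR against N2 8, and in 2KR against WT 0.

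Changes of both signs stood side by side in the third run on chromosome II. Of its 6 members, gst-26 and gst-29 were called higher and gst-39 lower in 2KR against N2. Of the other 3, gst-27 had log2 fold changes of 0.14 ± 0.13 SE in WT and 0.24 ± 0.13 SE in 2KR, gst-28 had 0.73 ± 0.24 and 0.56 ± 0.24, and gst-35 had -0.36 ± 0.49 and -0.25 ± 0.48. For gst-28 the values were 6.63 and 6.11 CPM in N2, 12.1, 7.27 and 12.2 CPM in WT and 8.75, 7.89 and 11.5 CPM in 2KR. All 6 values of the lines lay above N2, the WT replicate 2 library being close to it. With all libraries gst-28 was not called in WT against N2 (adjusted p = 0.13 by edgeR). It was called higher without WT replicate 2 (adjusted p = 0.0271 by edgeR), in a fit that called 370 of 14322 genes. Leaving out the lowest WT library widens the difference by itself, so that call adds no support. Without WT replicate 1 or 3 gst-28 was not called. Outside the family, 2 genes tested lay within 20000 bases of this run, with a median log2 fold change of 0.07 in WT and 0.06 in 2KR, and neither passed the edgeR test.

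The run from gst-20 to gst-18 held 5 members, and none of these passed the edgeR quasi-likelihood test without a block in the 3 comparisons. Unadjusted p values under 0.05 were those of gst-16 in WT against N2 (0.012) and gst-20 in 2KR against WT (0.0385). For gst-16 the values were 2.80 and 2.99 CPM in N2, 3.76, 5.17 and 3.96 CPM in WT and 3.30, 3.87 and 3.69 CPM in 2KR. N2 lay below the other groups, which overlapped, and the log2 fold change of gst-16 in WT against N2 was 0.57 ± 0.19 SE (adjusted p = 0.129 by edgeR). In gst-12 and gst-15, too, both N2 libraries lay below all 6 libraries of the lines, with log2 fold changes between 0.28 and 0.49 over N2, which did not pass. How many of all genes tested separate N2 from the lines in this way was not counted. Here and for the other members, groups that do not overlap are therefore a description and not a result beyond the test. The last member of the run, gst-24, overlapped between all groups and had log2 fold changes of 0.12 and 0.15.

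**Figure D3:**
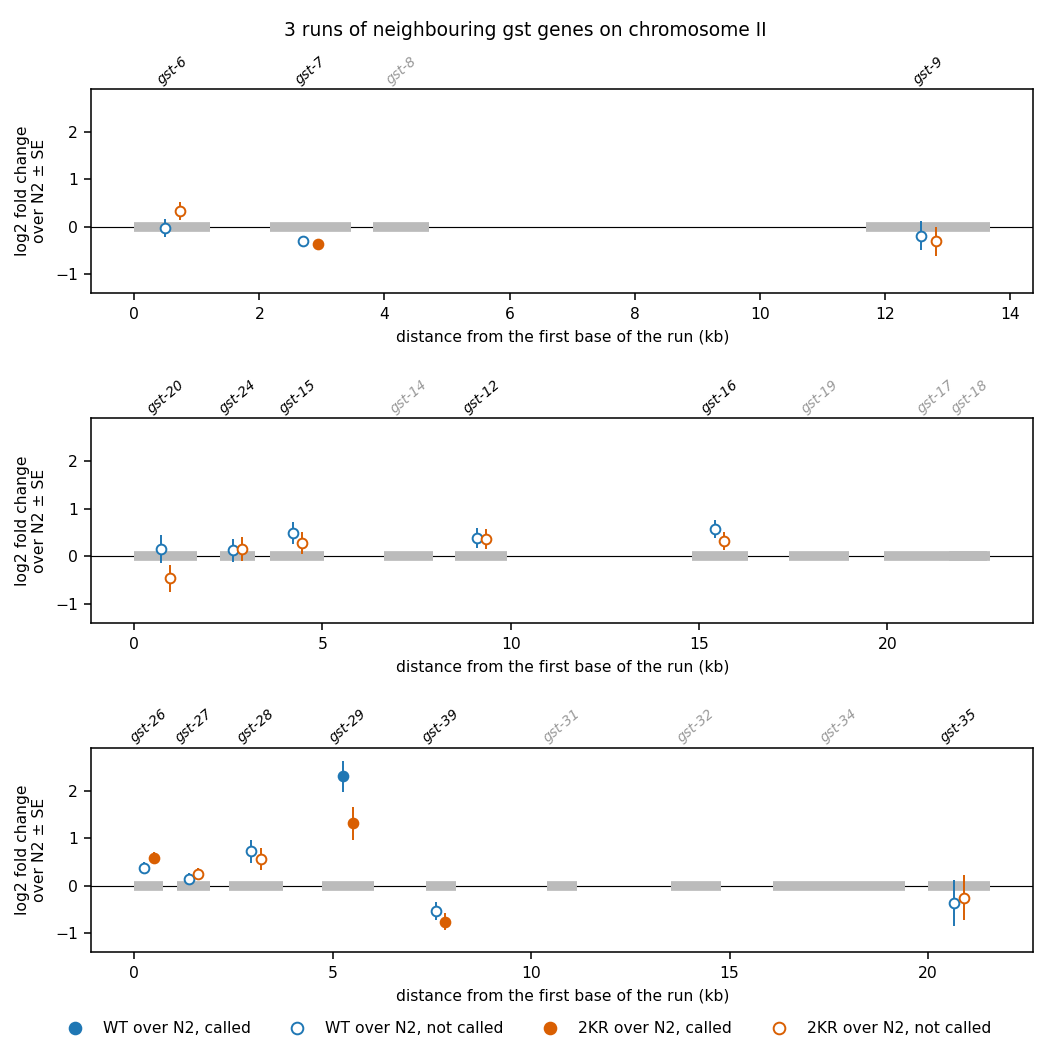
Log2 fold change over N2 with its SE for the members of the 3 runs on chromosome II, placed by distance from the first base of each run in kilobases; grey bars are the genes, grey names are genes under the rule, and filled points passed the edgeR test. In the bottom panel gst-29 stands at 2.30 in WT and 1.31 in 2KR, and its neighbour gst-39 at -0.54 and -0.75.

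Between the 2 transgenic lines, which differ in the DAF-16 substitutions, 0 of 34 members were called without a block by the edgeR quasi-likelihood test, where 0.244% of all genes were called, 0.0766% higher and 0.167% lower. At an unadjusted p under 0.05 there were 7 members, and 6.57% of all genes, and with DESeq2 0 of 34 members and 0.628% of genes were called. The log2 fold changes of the members ran from -0.99 to 0.36 with a median of 0.00. WT and 2KR libraries of the same replicate number share a header tag and were taken as pairs, a pairing that comes from these data and not from the labels. With that number as a block, which places N2 replicate 2 with the tag 3 libraries, gst-20 was called lower. This was 1 of 34 members, where 1.54% of genes were called and 0.627% were called lower. With the header tags as the block, which place N2 replicate 2 with the third libraries of the lines, gst-20 and gst-29 were called lower, where 2.22% of genes were called and 0.787% were called lower.

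Gene gst-20 (WBGene00001768, chromosome II 13608154 to 13609824) heads the second run. It stood at 30.6 and 26.4 CPM in N2, at 32.02, 22.03 and 40.8 CPM in WT and at 19.9, 13.5 and 28.5 CPM in 2KR. WT and 2KR overlapped, but in both lines tag 3 was lowest and tag 6-6 highest. Within a tag 2KR lay below WT each time, the ratio being 0.623 for tag 1, 0.615 for tag 3 and 0.697 for tag 6-6. Without the block the log2 fold change was -0.62 ± 0.26 SE (adjusted p = 0.694 by edgeR), and with the replicate number as the block it was -0.63 ± 0.08 SE (adjusted p = 0.00226 by edgeR).

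For gst-29 the ratio of 2KR to WT within a tag was 0.392, 0.679 and 0.484. Its log2 fold change was -0.99 ± 0.23 SE, with an edgeR adjusted p of 0.221 without a block, 0.0702 with the replicate number and 0.0477 with the header tag. The other members with the smallest p did not pass with or without a block: gst-38 had -0.56 ± 0.20 SE (adjusted p = 0.586 by edgeR). In the other direction gst-13 had 0.23 ± 0.10 SE (adjusted p = 0.674 by edgeR) and gst-36 had 0.18 ± 0.08 SE (0.722). The gst-36 values were 21.7 and 21.7 CPM in N2, 22.95, 22.2 and 22.4 CPM in WT and 23.3, 27.6 and 25.4 CPM in 2KR, with 2KR above the other groups.

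**Figure D4:**
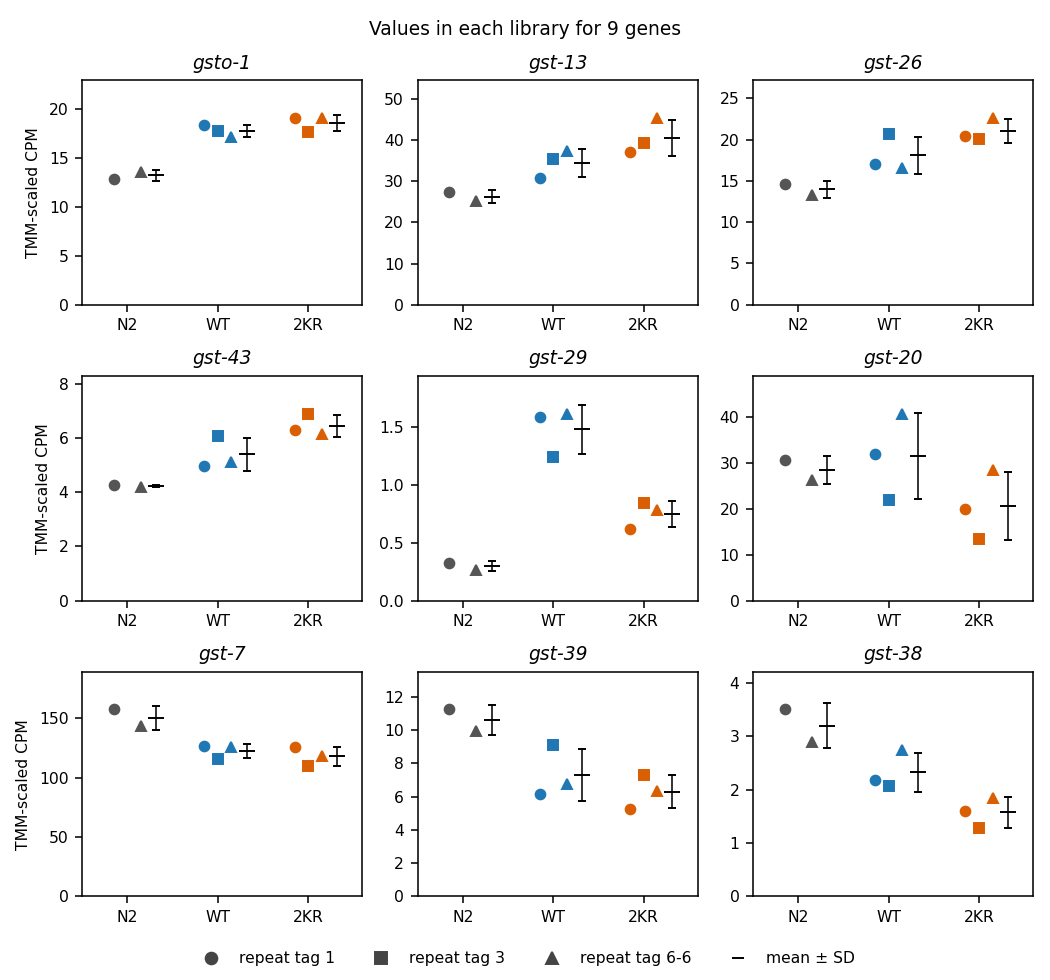
TMM-scaled CPM in each library for 9 genes called in at least 1 comparison, gst-20 with a block; colours are groups, symbols are the repeat tags of the file headers, and bars are the mean ± SD of a group (n = 2 for N2, n = 3 for WT and 2KR). In gst-20 the 3 tags fall in the same order in WT and 2KR, from 22.03 to 40.8 CPM and from 13.5 to 28.5 CPM.

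Gene gst-4 (WBGene00001752, chromosome IV 10142225 to 10143099), the usual reporter of SKN-1 activity, stood at 11.7 and 9.90 CPM in N2, at 14.4, 11.3 and 14.6 CPM in WT and at 13.3, 13.8 and 13.8 CPM in 2KR. N2 and WT overlapped, since WT replicate 2 lay under N2 replicate 1. Its log2 fold change over N2 was 0.31 ± 0.13 SE in WT and 0.34 ± 0.13 SE in 2KR, neither of which passed (adjusted p of 0.228 and 0.144 by edgeR), and between the lines it was 0.03 ± 0.11 SE. An exon of gst-4 shares 65 bases with dhs-12 on the same strand, whose log2 fold change over N2 was 0.26 in WT and 0.14 in 2KR. Of the other members, 7 overlap a coding gene on the opposite strand, and whether the counts respect strand is not stated in the labels.

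The log2 fold change of the abundant gst-1 was -0.07 ± 0.06 SE in WT against N2, -0.19 ± 0.06 SE in 2KR against N2 and -0.12 ± 0.05 SE in 2KR against WT, with edgeR adjusted p of 0.521, 0.0694 and 0.734. For gst-10 it was within 0.01 of 0 in each comparison, with SE of 0.15, 0.15 and 0.13. The kappa gene gstk-1 had -0.13 ± 0.11 SE and -0.14 ± 0.11 SE over N2, and the smaller kappa gene gstk-2, at 1.96 to 3.30 CPM, had 0.14 ± 0.25 SE and -0.08 ± 0.25 SE, none of which passed.

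Libraries of repeat tag 6-6 were compared with those of tag 1 in a fit with terms for group and tag. Of 34 members, 0 were called by the edgeR quasi-likelihood test, where 4.46% of all genes were called, and 5 members had an unadjusted p under 0.05, as did 21.3% of all genes. The smallest p were those of gst-41, with a log2 difference of 0.90 ± 0.23 SE (adjusted p = 0.0502 by edgeR), and gst-10, with 0.22 ± 0.06 SE (adjusted p = 0.0647 by edgeR). Without the filter on low counts both passed (adjusted p of 0.021 and 0.0438 by edgeR). In the WT and 2KR libraries alone, gst-41 and gst-10 did not pass (0.124 and 0.0583), and gst-20 (log2 difference 0.44, adjusted p = 0.0297 by edgeR) and gst-13 (0.30, adjusted p = 0.0418 by edgeR) were higher in tag 6-6. The share of all genes called is not given here for the fit without the filter or for the WT and 2KR libraries alone. The member calls of these fits are therefore not set against a background. Of the members, 25 had a positive value, with a median of 0.09 beside 0.02 over all genes.

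Genes that make, recycle or use glutathione were followed in 4 further lists, of which 3 genes were called in 2KR against N2, where 7.76% of all genes were called. The genes gcs-1 and gss-1 encode the enzymes that make glutathione, and gsr-1 encodes the reductase that restores it. In this list of 4 genes 0 were called in each of the 3 comparisons (edgeR quasi-likelihood test), with 1 or 2 at an unadjusted p under 0.05, and gcs-1, a classic SKN-1 target, had log2 fold changes of -0.03 ± 0.05 SE in WT and -0.15 ± 0.05 SE in 2KR against N2. In 2KR against N2 gcs-1 had an unadjusted p of 0.0205 by edgeR. With the header tags as a block it was called lower (adjusted p = 0.0368 by edgeR), where 2457 of 14361 genes were called. With the replicate number as a block 0 genes of this list were called in that comparison. Of 8 glutathione peroxidase genes 1 rose in 2KR against N2: gpx-6 stood at 0.887 and 0.713 CPM in N2 and at 1.83, 1.39 and 1.46 CPM in 2KR (log2 fold change 0.96 ± 0.25 SE, adjusted p = 0.0453 by edgeR).

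Of 8 mrp genes, which encode exporters of glutathione conjugates, mrp-1 rose in 2KR against N2, from 35.6 ± 2.01 CPM (SD, n = 2) to 43.4 ± 1.24 CPM (SD, n = 3), with a log2 fold change of 0.29 ± 0.07 SE (adjusted p = 0.0367 by edgeR). Of 13 tested genes for glutaredoxins, thioredoxins and peroxiredoxins, glrx-3 fell in that comparison (-0.23 ± 0.06 SE, adjusted p = 0.0353 by edgeR). In WT against N2 and in 2KR against WT 0 genes of these 4 lists were called by the same test. In the order of the lists here, 1, 3, 1 and 1 genes had an unadjusted p under 0.05 in WT against N2, and 1, 1, 0 and 1 in 2KR against WT. The median log2 fold change in 2KR against N2 was -0.01 for synthesis and reduction, 0.31 for peroxidases, 0.03 for glutaredoxins, thioredoxins and peroxiredoxins and 0.04 for exporters, beside 0.01 over all genes. The replicate number as a block, a pairing not shown for N2, gave further calls in WT against N2, where 1794 of 14361 genes were called. These were 2 peroxidase genes higher and 1 lower, 2 of the glutaredoxin, thioredoxin and peroxiredoxin list higher, and 1 exporter gene higher and 1 lower.

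Among 17 tested regulators of detoxification genes, the kinase gene pmk-1 and daf-16 were the genes called. PMK-1 is the p38 kinase that phosphorylates SKN-1. Its gene averaged 51.7 ± 2.00 CPM in N2 (SD, n = 2), 20.2 ± 1.09 in WT and 19.8 ± 0.637 in 2KR (SD, n = 3 each). It was 2.55-fold lower in WT (adjusted p = 5.48e-06 by edgeR) and 2.603-fold lower in 2KR (adjusted p = 4.77e-06 by edgeR) than in N2. The skn-1 transcript had log2 fold changes over N2 of -0.09 ± 0.05 SE in WT and -0.08 ± 0.05 SE in 2KR, and wdr-23, whose product removes SKN-1, had -0.05 ± 0.07 SE and -0.09 ± 0.07 SE, none of which passed.

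**Figure D5:**
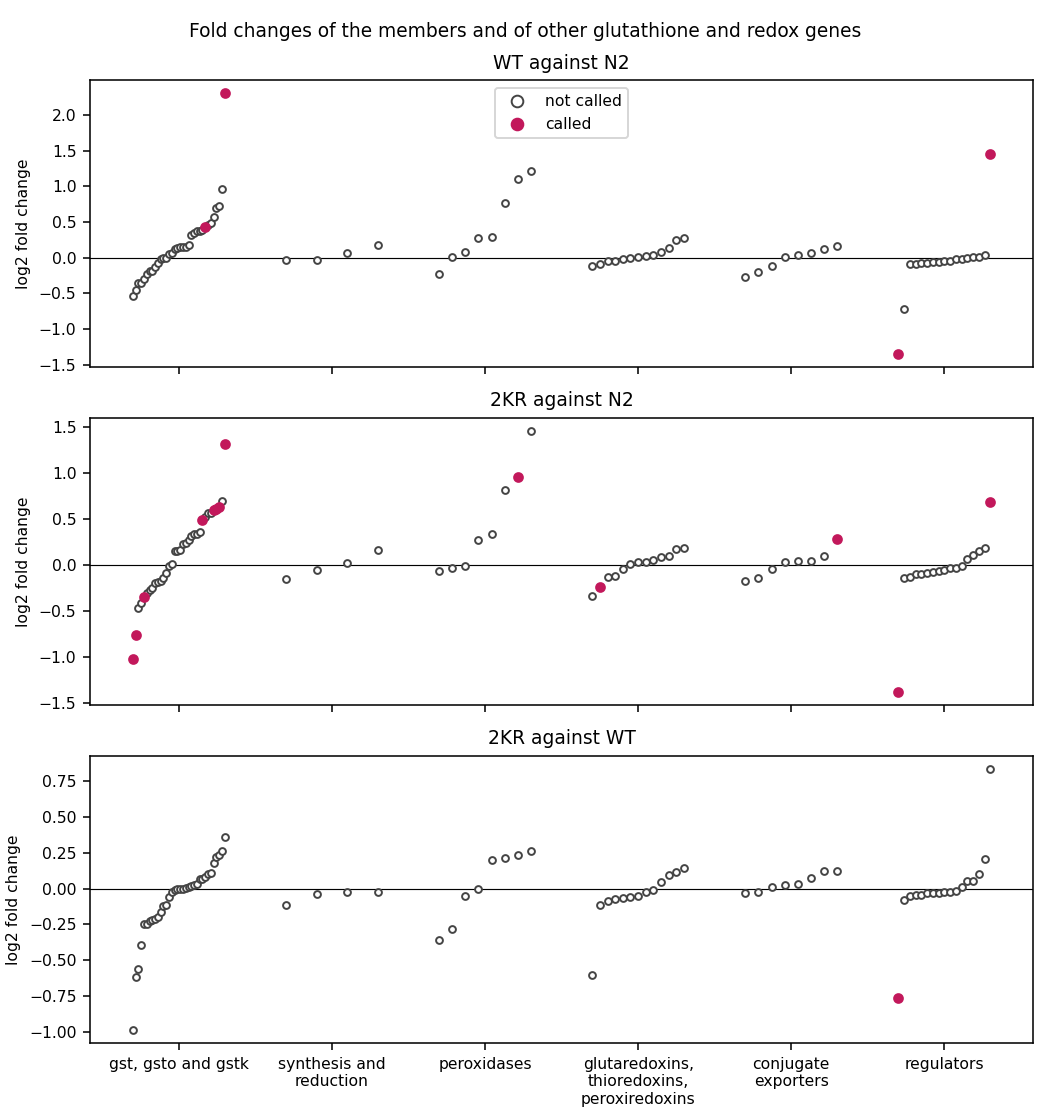
Log2 fold changes of the 34 members and of the tested genes in 5 lists of other glutathione and redox genes, sorted within a list, in 3 comparisons; filled points passed the edgeR test. In the column of regulators the lowest point over N2 is pmk-1, at -1.35 in WT and -1.38 in 2KR, and the highest is daf-16, at 1.45 and 0.69.

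Cell type markers moved beside these changes in the comparisons with N2. Of 7 intestine markers, 2 rose in WT (act-5 and ifb-2) and 3 rose in 2KR (act-5, ifb-2 and pept-1). Their log2 fold changes were 0.40 to 0.76, and 4.07% of all genes were called in WT and 7.76% in 2KR. The list had 5 positive and 2 negative values in WT, and 7 positive in 2KR. The negative ones were asp-1, at 979 CPM in N2 and 813 in WT, and vha-6, at 242 and 227. The summed level of the list was 1627 to 1709 CPM in N2, 1463 to 1801 in WT and 1839 to 1908 in 2KR. Of 4 pharynx markers 0 were called by the edgeR test without a block, 3 in WT and 4 in 2KR had an unadjusted p under 0.05, with median log2 fold changes of 0.76 in WT and 0.97 in 2KR and summed levels of 33.5 to 49.1 CPM in N2, 49.96 to 88.2 in WT and 50.6 to 101 in 2KR. Of 6 neuron markers ric-4 rose in 2KR, and the sum was 49.1 to 59.2 CPM in N2, 55.9 to 75.1 in WT and 57.8 to 79.8 in 2KR. Of 5 genes listed for hypodermis and cuticle nlp-29 fell in 2KR. The list had 3 positive and 2 negative values in 2KR against N2, with a median log2 fold change of 0.16, and 2 positive and 3 negative in WT. Its summed level was 2716 to 2915 CPM in N2, 2302 to 2604 in WT and 2639 to 2852 in 2KR, so that N2 and 2KR overlapped. Of 5 muscle, 6 tested sperm and 7 germline markers 0 were called in each of the 3 comparisons by edgeR. At most 2 of these in a list had an unadjusted p under 0.05. All 6 tested sperm markers had negative log2 fold changes over N2, with medians of -0.52 in WT and -0.93 in 2KR, and the sum over the list was 9.36 to 11.8 CPM in N2, 4.24 to 12.7 in WT and 4.22 to 8.06 in 2KR, so that N2 and 2KR did not overlap. With the replicate number as a block, a pairing not shown for N2, 1794 of 14361 genes were called in WT and 2695 in 2KR. All 4 pharynx markers were then called higher in both lines, and 2 neuron markers in WT and 4 in 2KR. Intestine had 2 higher in WT and 3 in 2KR, and muscle had 1 higher in each line. The hypodermis and cuticle list had 2 lower in WT, and 1 higher and 1 lower in 2KR. In 2KR 1 sperm marker was called lower, and 0 germline markers were called in either line. No marker in these lists was at 0 in all libraries, and the part of such shifts in the transferase changes was not tested. In 2KR against WT with the replicate number as a block, where gst-20 was called, asp-1 and pept-1 of the intestine list were called higher and nlp-29 lower. In that fit 1.54% of all genes were called. Without a block, the intestine list had 5 positive and 2 negative values in 2KR against WT. The hypodermis and cuticle list had 3 positive and 2 negative, with a median log2 fold change of 0.13, so nlp-29 does not stand for its list.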

How the data were processed

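RNA was sequenced with a directional library kit per the labels. The submitters' processing notes name Trimmomatic 0.32, TopHat2 2.1.0 and DESeq2 1.14.1. Not given in the sources used here are the genome build, annotation, counting program and strand setting. Each deposited file covers 1 library and gives for every gene the raw count and, per the file headers, a CPM, which the values show to be the count divided by about the library total. The counts were analysed, and the deposited CPM was not used. Files were joined by gene identifier. Positions, exons and coding lengths are from Ensembl 115 (WBcel235), where all 49 genes matched by identifier.

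In R 4.3.3 with edgeR 4.0.16, genes were kept by filterByExpr and scaled by TMM, and N2, WT and 2KR were fitted together with a term per group. Fold changes and SE are from the quasi-likelihood fit, with Benjamini-Hochberg adjustment over all 14361 genes. The filter kept all 34 members and also gst-2, gst-11 and gst-32, which are under the rule and not counted as members. Alternatives were RLE size factors, no filter, DESeq2 1.42.0, a replicate block by label number or header tag, the 2 groups alone, and leaving out each library. The block with the 2 groups alone was added after the data were seen. Same-numbered WT and 2KR libraries deviated together (correlations in the report), so their numbers were taken as pairs, a pairing that comes from the data. With 2 N2 libraries this could not be shown for N2. The code was tested on simulated counts. Members, lists, tests and the naming rule were chosen with earlier results of these data known. The naming rule takes members called in any comparison with or without a block, the 5 most abundant, and the 5 with the smallest p in each comparison. Other genes with values were chosen after their values were seen. The labels call the libraries biological repeats without saying whether they were separate cultures, so p-values measure the spread between these libraries.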

Additional observations from a re-analysis of the deposited data

How the results depend on the processing

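The called members kept their direction under every alternative run. In 2KR against WT, 35 genes and 0 members were called without a block. The count of genes was 99 without the filter, 95 with DESeq2, 22 with the 2 groups alone, 221 with the replicate number as a block, 319 with the header tag as the block and 286 with the replicate block and the 2 groups alone. Members called were 1 with the replicate block, 2 with the header tag block and 1 with the block and the 2 groups alone. Leaving out 1 library gave 7 to 124 genes and 0 members. In WT against N2, 584 genes and 2 members were called. The replicate block by label number gave 1794 genes and 6 members, and the block by header tag 1455 and 6, each of 14361 genes tested. No filter gave 911 of 23959 genes and 5 members, and DESeq2 gave 677 of 14204 genes and 5 members. With the 2 groups alone 564 of 13980 genes and 3 members were called. Leaving out 1 library gave 101 to 464 genes and 0 to 2 members. In 2KR against N2, 1114 genes and 8 members were called. The replicate block by label number gave 2695 genes and 10 members, and by header tag 2457 and 11. Leaving out 1 library gave 162 to 986 genes and 0 to 6 members. The pairing is not shown for N2, since its replicates are 2. The members added by a block in WT against N2 were gst-7, gst-13, gst-16, gst-28 and gst-39. In 2KR against N2 they were gst-1, gst-4, gst-20 and gst-28. The cause of these shifts was not tested. For tag 6-6 against tag 1 the count was 641 genes. Of 49 genes, 34 were measured, and 30 with a minimum of 1 CPM in 3 libraries. Depth limits the members under 1 CPM: gst-29 rests on 6 and 7 counts in N2.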
